A study of Mus musculus with 12 samples.

Results

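The genes described here are 37 cell cycle genes, measured by every array probe annotated to their symbols, with each probe treated on its own. Probes were annotated to 35 of the 37, which gave 82 of the 45281 probes on the array, while the RNA levels of Ccnb1 and Mki67 are not analysed here. The genes fall into 10 that act in G1, read by 25 probes, 12 that make DNA or its precursors, read by 32 probes, and 13 that act from the G2 phase through mitosis, read by 25 probes. Samples were liver at 12 weeks and gonadal adipose tissue (GWAT) at 8 weeks, all from male FVB mice under ketamine and xylazine anaesthesia at 3 PM, although the collection text of the labels names livers alone. Each tissue had 3 bead arrays labelled wild type and 3 labelled Cav1 knockout. Cav1 encodes caveolin-1, which builds the small inward folds of the cell surface known as caveolae. The labels do not say how the knockout allele was made, nor whether each replicate was its own animal. The p-values therefore cover only the spread among these arrays, part or all of which may be technical.

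A cell leaves rest when D-type cyclins and their partner kinases Cdk4 and Cdk6 phosphorylate the retinoblastoma protein RB, which frees E2F factors to switch on cyclin E and the genes of DNA replication. The later kinases, cyclins and spindle checkpoint proteins are switched on through elements that bind the MuvB complexes, and the inhibitors p21 (Cdkn1a) and p27 (Cdkn1b) hold the kinases back. Most hepatocytes and all mature fat cells of an adult mouse are at rest, and dividing cells in fat are known mainly among precursors, endothelial cells and macrophages. D-type cyclins and p21 also respond to growth factors and stress in cells that do not divide, so their RNA levels are not a count of dividing cells.

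The promoters of 5 of the genes whose probes passed the test in GWAT are shown first, because the 3 classes differ in the elements that their promoters hold. Sequences are from RefSeq (GRCm38.p6), read 5′ to 3′ on the gene's strand over the 200 bases before the annotated start. Capitals mark 4 motifs, each on either strand. The GC box was searched as GGGCGG and the CCAAT box by the letters of its name. An E2F element was searched as TTTCCCGC or TTTGGCGC. The cell cycle homology region, CHR, was searched as TTTGAA, and none of these motifs contains another. Cdkn1a has 2 annotated starts, at chr17:29090779-29090978 and chr17:29093569-29093768 on the plus strand. Cdk4 lies at chr10:127063335-127063534 and Rrm1 at chr7:102441495-102441694, both on the plus strand. Mcm6 lies at chr1:128359706-128359905 and Cdk1 at chr10:69352913-69353112, both on the minus strand.
Cdkn1a first start: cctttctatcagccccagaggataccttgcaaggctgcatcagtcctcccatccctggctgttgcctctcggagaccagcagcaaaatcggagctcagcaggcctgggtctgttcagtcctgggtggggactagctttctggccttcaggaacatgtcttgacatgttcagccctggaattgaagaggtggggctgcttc
Cdkn1a second start: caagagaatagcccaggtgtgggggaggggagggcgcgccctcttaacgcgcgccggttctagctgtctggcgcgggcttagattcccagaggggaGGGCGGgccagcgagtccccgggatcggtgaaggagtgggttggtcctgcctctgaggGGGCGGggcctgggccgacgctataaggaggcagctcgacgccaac
Cdk4: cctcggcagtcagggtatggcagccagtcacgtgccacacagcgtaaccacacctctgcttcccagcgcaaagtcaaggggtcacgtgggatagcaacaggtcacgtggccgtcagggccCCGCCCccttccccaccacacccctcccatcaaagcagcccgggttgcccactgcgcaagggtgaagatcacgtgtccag
Rrm1: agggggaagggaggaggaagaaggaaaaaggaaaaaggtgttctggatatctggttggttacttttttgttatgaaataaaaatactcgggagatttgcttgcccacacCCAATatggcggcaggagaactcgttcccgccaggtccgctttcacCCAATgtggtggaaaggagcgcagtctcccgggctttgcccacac
Mcm6: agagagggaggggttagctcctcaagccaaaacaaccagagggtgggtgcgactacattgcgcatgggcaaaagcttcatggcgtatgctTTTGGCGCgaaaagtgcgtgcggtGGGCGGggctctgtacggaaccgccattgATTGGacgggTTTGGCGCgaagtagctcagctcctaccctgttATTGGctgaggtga
Cdk1: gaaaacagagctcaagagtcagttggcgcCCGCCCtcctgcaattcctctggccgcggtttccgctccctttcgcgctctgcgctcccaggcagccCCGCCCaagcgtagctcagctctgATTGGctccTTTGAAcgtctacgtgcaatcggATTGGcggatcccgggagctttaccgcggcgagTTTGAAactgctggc
The Mcm6 stretch holds E2F elements, a GC box and reverse CCAAT boxes, and that of Cdk1 holds CHR elements beside reverse CCAAT boxes and reverse GC boxes. Rrm1 shows CCAAT boxes alone, Cdk4 and the second Cdkn1a start show GC boxes alone, and the first Cdkn1a start shows none of the 4.

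The RefSeq table held promoters of 31 of the 37 genes, 34 in all, from 250 bases before to 50 bases after the start. The 13 mitotic promoters counted here include those of Ccnb1 and Mki67, which have no probe, and none of Ccna2 and Aurkb, so they are not the 13 mitotic genes measured on the arrays. An E2F element was found in 1.565% of the 32851 promoters of the whole table. It was found in 5 of the 12 replication gene promoters (those of Cdc6, Mcm3, Mcm5, Mcm6 and Mcm7), in 1 of the 9 G1 gene promoters (Cdk2) and in 0 of the 13 mitotic gene promoters. The CHR motif, by contrast, was in 9 of the 13 mitotic gene promoters, in 1 of the 12 replication gene promoters and in 0 of the 9 G1 gene promoters, against 17.89% of all promoters. CCAAT boxes were in 11 of the 13 mitotic, 9 of the 12 replication and 3 of the 9 G1 gene promoters, against 37.41% of all. GC boxes were in 11, 9 and 7 of them, against 35.66% of all. A match is a description of the letters in this window and not a site shown to be bound.

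**Figure D1:**
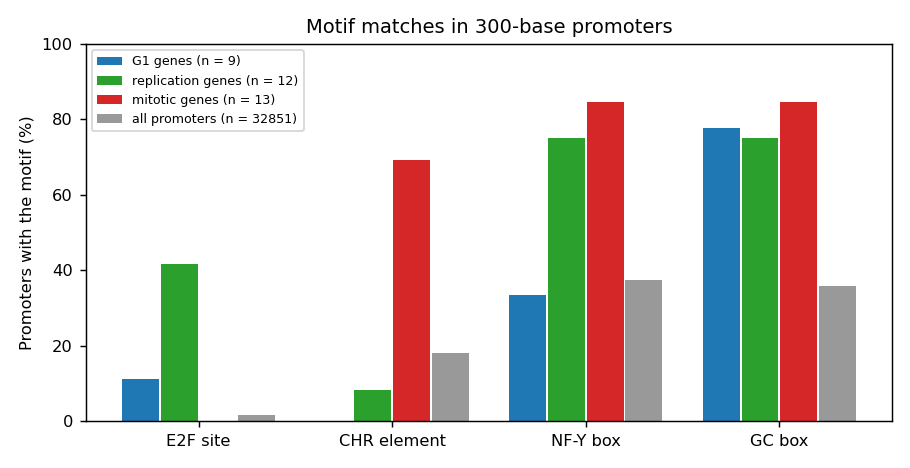
Share of promoters (percent, y axis) that hold each motif (x axis) on either strand, for all 32851 promoters of the table and for the G1, replication and mitotic genes. E2F elements reach 41.67% among replication genes and CHR motifs 69.23% among mitotic genes.

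Cav1 was examined before its groups were compared. In liver its single probe read 167 to 210 on wild-type arrays and 110 to 117 on knockout arrays, below background on all 3 of the latter. In GWAT it read 108 to 112 on arrays labelled wild type and 14598 to 17476 on arrays labelled knockout, against the labels. Directions in GWAT therefore follow the labels as deposited, and all of them would turn with the labels. Values were linear intensities normalized by the authors within each tissue, with medians of 113 in liver and 69.2 in GWAT. A probe was called above background where it exceeded the 95th percentile of 1526 odorant and pheromone receptor probes on the same array, a level of 121 to 124 in liver and 70.4 to 73.8 in GWAT. All 12 hepatocyte marker probes passed the filter in liver and all 12 adipocyte marker probes in GWAT. Albumin was below background on every GWAT array, and adiponectin and perilipin on every liver array. Other markers of the opposite tissue were present: 5 of the 10 hepatocyte marker genes were tested in GWAT, and 2 of the 9 adipocyte marker genes in liver.

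Many of the 82 cell cycle probes were near or below background, with the smallest share above it among mitotic genes in liver and among replication genes in GWAT. On a single liver array, 12 to 16 of the 25 G1 probes, 10 to 15 of the 32 replication probes and 4 to 8 of the 25 mitotic probes were above background. On a single GWAT array these counts were 20 to 22, 15 to 17 and 14 to 16. Of all probes on the array, 33.7% to 36.6% were above background in liver and 44.8% to 48.6% in GWAT. In both tissues the ranges for wild-type and knockout arrays overlapped in every class. No level is set between liver and GWAT as a test, since the tissues were normalized apart and differ in age. With 3 arrays in a group, precision is limited by their number.

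**Figure D2:**
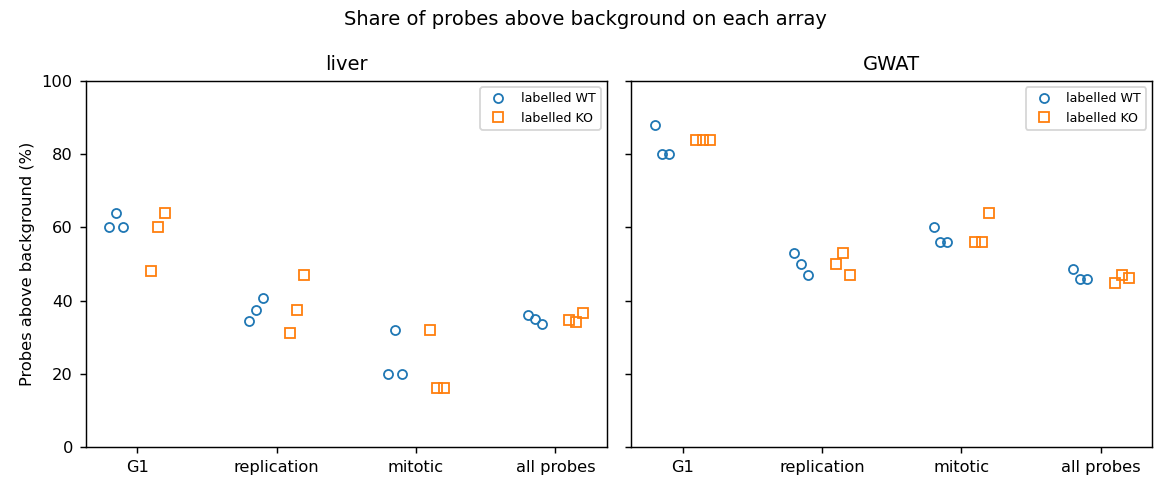
Percent of the probes of each class above background on each of the 12 arrays (y axis), by tissue and labelled genotype, beside the percent among all probes. Each point is 1 array. Mitotic probes lie between 16 and 32 percent in liver and between 56 and 64 percent in GWAT.

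In liver, none of the cell cycle genes passed the test between genotypes. Of the 82 probes, 32 of 19 genes exceeded background on 3 or more of the 6 arrays and were tested with limma, and 0 passed an adjusted p of 0.05. Of the 15412 liver probes tested on the array, 0.0584% passed, 0.0324% higher and 0.026% lower in the knockout, so a count of 0 lies near the background. At an unadjusted limma p under 0.05 there were 3 of the 32, of Ccnd1 and Tyms, against 9.91% of all probes. The genotypes did not overlap in 2 probes higher and 3 lower in the knockout, against 6.79% and 8.59% of all probes tested. Over all 82 probes, without a filter, the median log2 difference (knockout minus wild type, on the background-corrected scale) was 0.03, and it was 0.03 over all probes of the array. By class that median was 0.04 for G1, 0.02 for replication and 0.04 for mitotic genes. Over the 32 tested probes alone the median was -0.11, against -0.02 over all 15412 tested. By class it was -0.04 for 15 G1 probes, -0.13 for 13 replication probes and -0.17 for 4 mitotic probes. The tested probes ranged from -0.57 (Ccne1, cyclin E1) to 0.78 (Cdkn1a). In simulated liver data with 100 probes changed at each size, 42% of changes of 1 on the log2 scale were recovered. Of changes of 0.5, 5% were recovered, so most small changes could be missed with these arrays.

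Ccnd1, cyclin D1, which takes part in the exit from rest, read 3091, 2496 and 2380 on the wild-type arrays and 2370, 2287 and 1792 on the knockout arrays with its brightest probe. The knockout arrays all lay below the wild-type arrays, with the nearest pair close together, and the log2 difference of -0.32 (SE 0.14, limma adjusted p = 0.488) did not pass. The other Ccnd1 probes overlapped between genotypes, at 0.01 and -0.11. Ccnd2, cyclin D2, read 183, 188 and 208 in wild-type and 181, 194 and 174 in knockout liver, with a log2 difference of -0.16 (adjusted p = 0.832). Ccnd3, cyclin D3, read 791, 729 and 757 against 926, 807 and 640. The genotypes overlapped for both cyclins. Cdk4, the kinase of the D-type cyclins, read 329, 304 and 310 in wild-type and 347, 390 and 348 in knockout liver. These groups did not overlap, yet the difference of 0.28 (SE 0.16) did not pass (adjusted p = 0.586).

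Cdkn1a in liver was set apart by a single array. Its probe ILMN_2634083 read 140, 134 and 136 on wild-type arrays and 152, 276 and 131 on knockout arrays. Knockout replicate 2 was also the highest of the 6 arrays on the other Cdkn1a probes, at 150 and 155, while the remaining 5 arrays stayed between 99.8 and 133. The log2 difference of the first probe was 0.78 (SE 0.42, limma adjusted p = 0.557) and did not pass. With arrays weighted by their quality it was 1.66 and passed (adjusted p = 0.0117), in a fit that called 706 of 15412 liver probes against 9 without weights. Cdkn1b, which encodes p27, had no probe above background on 3 liver arrays. Its brightest probe read 114, 122 and 133 in wild-type and 118, 123 and 120 in knockout liver.

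Tyms, thymidylate synthase, read 239, 216 and 266 on wild-type and 272, 294 and 291 on knockout arrays with its brightest probe, and 124, 127 and 144 against 116, 117 and 115 with the other tested probe. In each probe the genotypes did not overlap, and the log2 differences had opposite signs, at 0.40 and -0.53, neither past the threshold (adjusted p = 0.498 and 0.491). Rrm1, the large subunit of ribonucleotide reductase, read 172, 180 and 176 against 139, 158 and 183. Its small subunit Rrm2 read 115, 134 and 131 against 113, 128 and 115. Both subunits overlapped between genotypes. Mcm6, a subunit of the replicative helicase, read 122, 118 and 132 against 122, 128 and 153 with its probe ILMN_1233857. Pcna, the sliding clamp of DNA polymerase, was below background on all 6 arrays, at 106 to 108 in wild-type and 111 to 120 in knockout liver.

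Only Birc5, Cdc20 and Mad2l1 of the 13 mitotic genes had a probe tested in liver. Birc5, survivin, a subunit of the chromosomal passenger complex, read 146, 151 and 134 on wild-type and 145, 127 and 137 on knockout arrays, an overlap, with a log2 difference of -0.23 (limma adjusted p = 0.787). Cdk1, the kinase that drives entry into mitosis, reached background on 1 array of each genotype with its brightest probe, which read 125, 112 and 119 against 141, 107 and 120. Top2a, the topoisomerase that untangles sister chromosomes, read 110, 123 and 102 against 107, 112 and 111. Both overlapped, and 10 of the 25 mitotic probes were below background on all 6 arrays.

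In GWAT, Cdkn1a and Ccnd2 fell on the arrays labelled knockout, to 0.520 and 0.484 of the mean intensity labelled wild type with their brightest probes. The calls in Ccnd1, Ccne2, Cdk4, Rrm1, Mcm6 and Cdk1 were smaller on the log2 scale. Of the 82 probes, 51 of 29 genes were tested and 13 passed (limma adjusted p under 0.05), 3 higher and 10 lower. That is 25.5%, against 22.5% of the 21301 probes tested on the array (11.2% higher and 11.4% lower), so the count as a whole lay near the background. At an unadjusted p under 0.05 there were 15 of the 51, against 35.6% of all probes tested. By class, 10 of 21 G1 probes (47.6%), 2 of 16 replication probes (12.5%) and 1 of 14 mitotic probes (7.14%) passed. The 10 G1 probes read 5 genes and are not independent of each other. Groups did not overlap in 6 tested probes higher and 10 lower on the arrays labelled knockout, against 20.6% and 18.8% of all probes tested. Without a filter, the median log2 difference over the 82 probes was -0.00, against 0.01 over all probes of the array. With 1 array left out the count of 13 was 8 or 6 without labelled wild-type replicate 1 or 2, 13 without replicate 3, and 12, 5 or 7 without labelled knockout replicate 1, 2 or 3. Fewer cells of a type and less RNA per cell cannot be told apart in whole tissue.

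**Figure D3:**
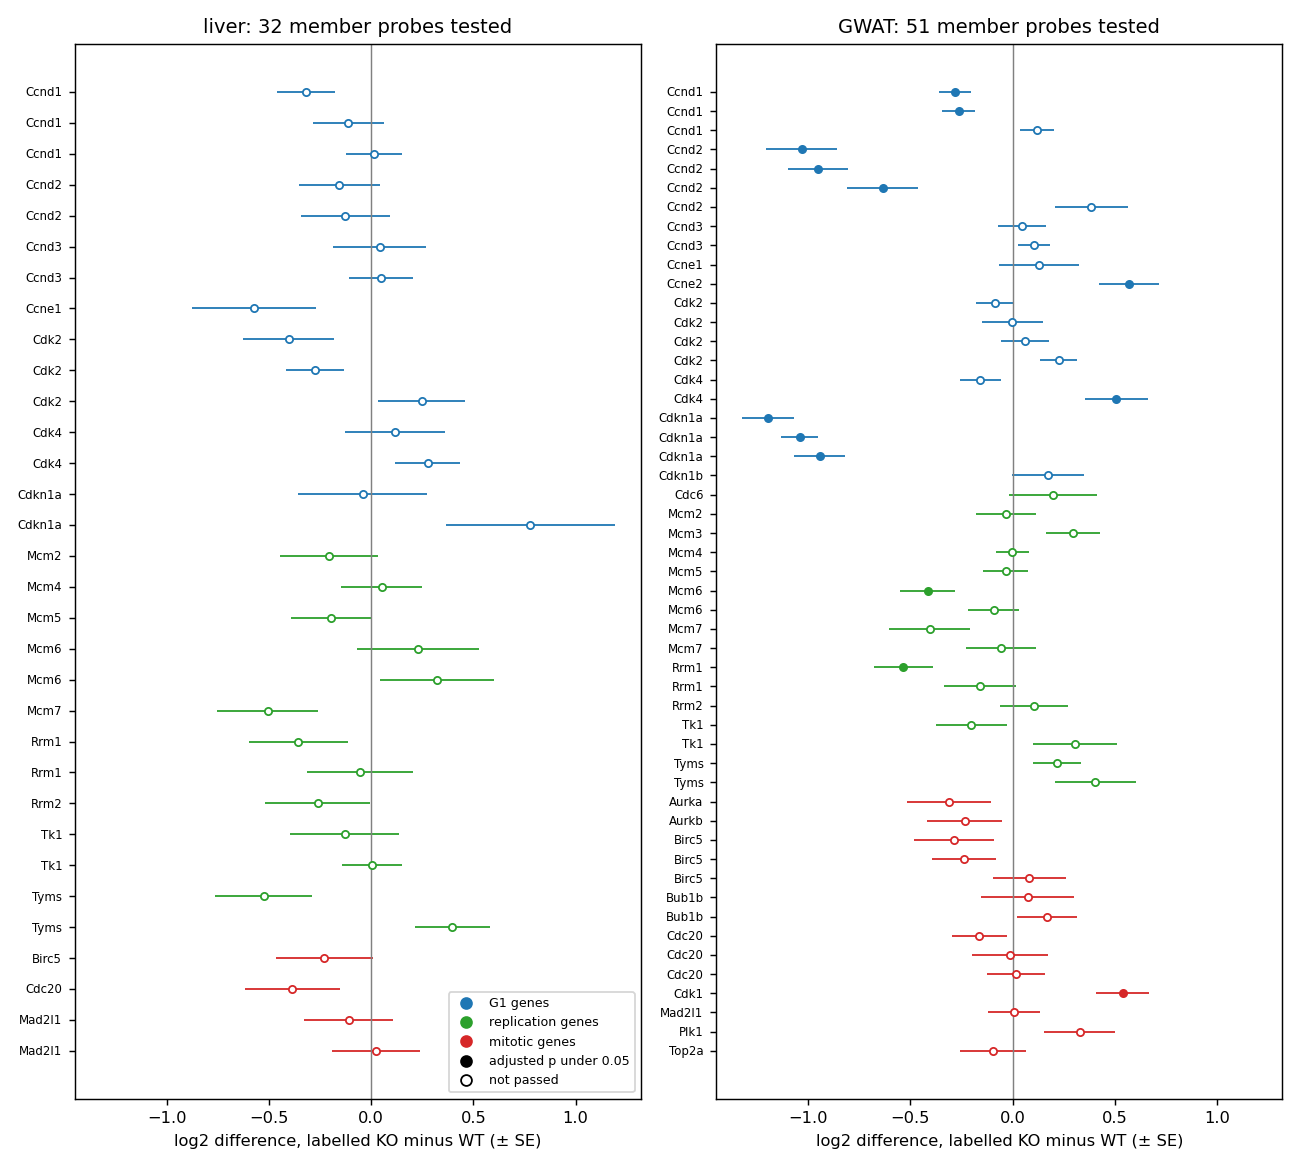
Log2 difference, knockout minus wild type by label (x axis), of each tested cell cycle probe (y axis, by gene and class) in liver and GWAT, with standard errors. In GWAT the 3 Cdkn1a probes and the brightest pair of Ccnd2 probes lie at or near -1, while the replication and mitotic probes lie between -0.54 and 0.54.

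Cdkn1a encodes p21, the kinase inhibitor induced by p53 and by differentiation signals. Its probe ILMN_2634083 read 669, 595 and 658 on GWAT arrays labelled wild type and 320, 331 and 349 on those labelled knockout. Every array labelled knockout lay far below every array labelled wild type. The means were 640 ± 39.9 (SD, n = 3) and 333 ± 15.1 (SD, n = 3), a ratio of 0.520, and the log2 difference was -1.04 (SE 0.09, limma adjusted p = 2.88e-05). Probe ILMN_2846776 read 226, 223 and 195 against 122, 120 and 113, and fell by 1.20 on the log2 scale (SE 0.13, adjusted p = 1.09e-04). Probe ILMN_2846775 read 222, 210 and 205 against 122, 136 and 137, and fell by 0.94 (SE 0.12, adjusted p = 4.40e-04). All 3 probes thus fell with no overlap between groups. Their calls held with each array left out in turn, with adjusted p at most 0.00347.

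Ccnd2, cyclin D2, fell on 3 of its 4 probes. ILMN_2700166 read 3269, 3178 and 1887 on arrays labelled wild type and 1229, 1395 and 1407 on arrays labelled knockout. Labelled wild-type replicate 3 was well below the other arrays of its group, and still above all arrays labelled knockout. The means were 2778 ± 773 (SD, n = 3) and 1343 ± 99.3 (SD, n = 3), a ratio of 0.484, and the log2 difference was -1.03 (SE 0.17, limma adjusted p = 0.00196). ILMN_2700168 read 1871, 1895 and 1242 against 788, 933 and 888, with the same replicate lowest in its group, and fell by 0.95 (SE 0.15, adjusted p = 0.00119). Both calls held with each array left out in turn, with adjusted p at most 0.0136. The dimmer probe ILMN_1225932, annotated to a record other than a RefSeq mRNA, read 224, 224 and 165 against 162, 143 and 134. It fell by 0.64 (SE 0.17, adjusted p = 0.0228) with a narrow gap between groups, a call lost without labelled wild-type replicate 1 or 2 or labelled knockout replicate 2 or 3 (adjusted p up to 0.0977). The fourth probe, near background, read 61.3, 73.0 and 69.5 against 83.3, 71.8 and 78.7 and did not pass (0.38, adjusted p = 0.149).

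**Figure D4:**
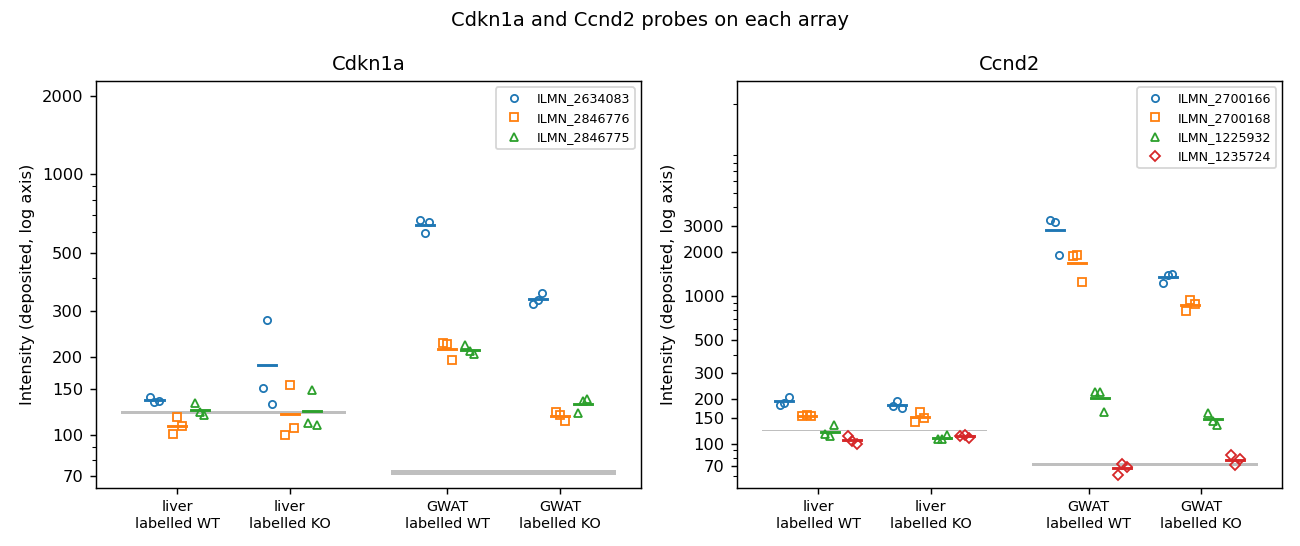
Deposited intensity (y axis) of the Cdkn1a and Ccnd2 probes on each of the 12 arrays, by tissue and labelled genotype. Points are arrays, horizontal bars are group means, and the grey band is the range of the background level over the arrays of a tissue. In GWAT the points of the 3 Cdkn1a probes and of 3 Ccnd2 probes separate by labelled genotype, and in liver 1 knockout array stands above the rest for Cdkn1a.

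The other D-type cyclins moved less. Ccnd1 read 1833, 1925 and 1788 on GWAT arrays labelled wild type and 1624, 1634 and 1392 on arrays labelled knockout with probe ILMN_1221503. It read 1595, 1475 and 1426 against 1270, 1302 and 1150 with ILMN_2601471. Neither probe overlapped between groups, and they fell by 0.26 (SE 0.08, limma adjusted p = 0.0385) and 0.28 (SE 0.08, adjusted p = 0.0266). The remaining Ccnd1 probe read 496, 478 and 469 against 545, 518 and 495, with an opposite sign (0.12, adjusted p = 0.348). Both calls were lost without labelled wild-type replicate 1 or 2 or labelled knockout replicate 2 or 3 (adjusted p up to 0.139 and 0.0971) and without an intensity trend. Ccnd3 read 2048, 2263 and 2080 against 2461, 2305 and 2105, and its groups overlapped (0.10, adjusted p = 0.377).

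Ccne2, cyclin E2, an E2F target that partners Cdk2, was close to background at 71.8, 71.7 and 74.9 on arrays labelled wild type and 84.1, 91.8 and 88.8 on arrays labelled knockout. The groups did not overlap, and it rose by 0.57 (SE 0.15, limma adjusted p = 0.0191). It exceeded background on 2 of the 3 arrays labelled wild type, and lost its call without labelled wild-type replicate 2 or labelled knockout replicate 2 or 3 (adjusted p up to 0.0737). Cdk4 differed by probe. ILMN_2646203 read 98.0, 102 and 119 against 125, 133 and 139 and rose by 0.51 (SE 0.15, adjusted p = 0.0373). The brighter ILMN_2690976 read 818, 779 and 696 against 766, 677 and 629, with overlapping groups and an opposite sign (-0.16, adjusted p = 0.288). The call of the dimmer probe was lost without labelled wild-type replicate 1 or 2 or labelled knockout replicate 2 or 3 (adjusted p up to 0.120).

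Among the other G1 genes, Cdk2, the partner of cyclin E, had 4 tested probes between -0.09 and 0.23 on the log2 scale (lowest adjusted p = 0.100). Ccne1, cyclin E1, was at 0.13 (limma adjusted p = 0.683). Cdkn1b was near background and overlapped, at 74.2, 79.7 and 72.2 on arrays labelled wild type and 72.5, 83.5 and 84.5 on arrays labelled knockout (0.17, adjusted p = 0.525). The probe of Cdk6, the other kinase of the D-type cyclins, exceeded background on 2 arrays, both labelled wild type, and was not tested.

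Of the 11 replication genes tested in GWAT, Rrm1 and Mcm6 had a probe that fell, and each had another probe that did not pass. Rrm1 read 171, 139 and 160 on arrays labelled wild type and 115, 125 and 124 on arrays labelled knockout with ILMN_1258715, without overlap, and fell by 0.54 (SE 0.14, limma adjusted p = 0.0224). Its brighter ILMN_2977624 read 337, 225 and 224 against 253, 232 and 219, with overlapping groups (-0.16, adjusted p = 0.554). Mcm6 read 168, 159 and 143 against 132, 128 and 124 with ILMN_2803399, without overlap, and fell by 0.42 (SE 0.13, adjusted p = 0.0445). Its ILMN_1233857 read 140, 156 and 146 against 137, 145 and 142, with overlap (-0.09, adjusted p = 0.629). The call of Rrm1 was lost without labelled wild-type replicate 1 or 3 or labelled knockout replicate 1 or 2 (adjusted p up to 0.0629), and that of Mcm6 with any array but labelled wild-type replicate 3 left out (adjusted p up to 0.122).

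The other helicase subunits in GWAT did not pass: Mcm4 was at -0.00, Mcm2 at -0.03, Mcm5 at -0.03, Mcm3 at 0.30 and the 2 probes of Mcm7 at -0.06 and -0.41. Rrm2 read 75.4, 72.9 and 80.8 on arrays labelled wild type and 74.2, 84.8 and 79.1 on arrays labelled knockout, an overlap (0.10, limma adjusted p = 0.701). Tyms read 204, 229 and 250 against 244, 270 and 256, also overlapping (0.22, adjusted p = 0.219). The tested probes of Tk1, thymidine kinase, lay at -0.20 and 0.31, and the tested probe of the helicase loader Cdc6 at 0.20. Pcna was above background on 1 of 6 GWAT arrays, at 74.3, 62.7 and 68.7 against 67.8, 64.1 and 66.8, and was not tested.

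Mitotic genes in GWAT gave a single call. Cdk1 read 113, 109 and 117 on arrays labelled wild type and 136, 152 and 148 on arrays labelled knockout with ILMN_2657844. These groups did not overlap, and the probe rose by 0.54 (SE 0.13, limma adjusted p = 0.0139). The other 2 Cdk1 probes were below background on all 6 arrays, at 54.1 to 65.3, and the call was lost without labelled wild-type replicate 2 or labelled knockout replicate 2 (adjusted p up to 0.0634). Birc5 read 133, 160 and 155 against 106, 147 and 143, with overlap (-0.29, adjusted p = 0.325), and its other probes lay at -0.24 and 0.08. Top2a read 111, 126 and 121 against 102, 119 and 124, with overlap (-0.10, adjusted p = 0.709).

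The remaining tested mitotic genes did not pass either. Plk1, the polo-like kinase of the spindle poles, was at 0.33, and Aurka and Aurkb, the Aurora kinases, were at -0.31 and -0.23. The checkpoint genes Mad2l1 and Bub1b lay at 0.01 and at 0.07 and 0.17, and Cdc20, the activator of the ligase that checkpoint proteins restrain, lay between -0.16 and 0.02 over 3 probes. Ccna2, Ccnb2, Bub1 and Ube2c, which encode cyclins A2 and B2, a checkpoint kinase and a ubiquitin-conjugating enzyme, were below background on all 6 GWAT arrays. The rise on a Cdk1 probe thus stood beside 8 other tested mitotic genes that did not pass.

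Other genes of the pathway were counted from lists of its known members. In GWAT 4 of 8 tested probes of other kinase inhibitors passed, all higher on arrays labelled knockout, against 22.5% of all GWAT probes called and 11.2% called higher. These 4 probes read 3 genes. Cdkn2c, which encodes the Cdk4 and Cdk6 inhibitor p18, read 391 to 427 on arrays labelled wild type and 621 to 670 on arrays labelled knockout with ILMN_1215651 (0.73, limma adjusted p = 1.81e-04). It read 1864 to 2626 against 3638 to 3948 with ILMN_1228366 (0.77), and its other probe did not pass (0.23). Cdkn1c, which encodes p57, read 1896 to 2466 against 3361 to 3842 and rose by 0.76 (adjusted p = 3.62e-04), and Cdkn2b, p15, rose by 0.42. Groups did not overlap for the called probes of any of these 3 genes. The log2 median over all 10 probes of this list without a filter was 0.16, against 0.01 over all probes of the array.

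Of the RB, E2F and MuvB genes in GWAT, 5 of 30 tested probes rose and 0 fell. The share called was smaller than the 22.5% of all GWAT probes, while the share that rose was larger than the 11.2% called higher. The called probes included 1 probe of Rb1, the retinoblastoma gene itself (0.35), and 1 of the repressor E2f6 (0.45, limma adjusted p = 0.00712). The other 3 were probes of Tfdp2, an E2F partner. Of the p53 targets other than Cdkn1a, 4 of 26 tested probes rose and 2 fell. Gadd45a, a stress response gene, rose on a pair of probes (0.94 and 0.79), and Bbc3 (0.60) and Ccng1 (0.33) on 1 probe each, while Trp53inp1 (-0.42) and Zmat3 (-0.39) fell. The count of 6 called among 26 probes lay near the share of all GWAT probes called, 22.5%. Of 34 further replication probes 2 rose, of Rpa3 and Gins2, of 20 further mitotic probes 1 fell, the centromere histone Cenpa (-0.53), and of 15 probes of checkpoint kinases and ubiquitin ligases 2 rose (Chek2 and Fbxw7) and 1 fell (Skp2). In each of these last 3 lists the share called was below 22.5%. In liver 1 probe passed over all 6 lists, Rpa3, lower in the knockout. It was 1 of 22 tested liver probes of the further replication genes, against 0.0584% of the 15412 liver probes called. The other lists had 19, 3, 19, 8 and 8 tested liver probes, with 0 called.

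Cell type markers also moved with the labelled genotype in GWAT, where 11.2% of all tested probes were called higher and 11.4% lower. Macrophage markers fell on 11 of 20 tested probes and rose on 0, and their summed background-corrected intensity was 29570 to 33577 on arrays labelled wild type and 20210 to 21834 on arrays labelled knockout, with Itgax and Clec4f below background on all 6. Granulocyte and mast cell markers fell on 7 of 11 and rose on 2, with sums of 1348 to 1679 and 979 to 1013, and Ngp, Prg2 and Camp were below background. Skeletal muscle markers rose on 3 of 7 and fell on 0, with sums of 672 to 749 and 1708 to 2823, with Pvalb and Myh4 below background. Smooth muscle markers rose on 4 of 12, with sums of 12586 to 15322 and 15590 to 26729, and none was below background throughout. Adipocyte markers rose on 3 and fell on 2 of 12, and their sums overlapped at 68831 to 72800 and 67784 to 69603. Endothelial markers rose on 1 and fell on 3 of 12, with overlapping sums, and fibroblast progenitor markers rose on 3 and fell on 4 of 13, with sums of 41604 to 43475 and 36251 to 40001. Hepatocyte markers rose on 1 of 5 and fell on 0, with sums of 16688 to 18252 and 21922 to 24408. Their genes Alb, Fgb, Cps1, Tat and Tdo2 were below background on all 6 arrays. Mesothelial markers rose on 1 of 8, and duct epithelial markers rose on 2 and fell on 1 of 10. No probe passed among 6 of T and B cells, 4 of testis and 3 of erythroid cells. The testis sums spread widely and overlapped, at 47.5 to 504 on arrays labelled wild type and 34.1 to 96.6 on arrays labelled knockout. Those of T and B cells were 278 to 296 and 298 to 371, and those of erythroid cells overlapped. The part of these cell types in the changes of Cdkn1a, Ccnd2 and the other cell cycle genes was not tested.

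The difference between tissues was tested as the interaction of tissue and labelled genotype over all 12 arrays. Of 31 cell cycle probes tested in both tissues, 2 passed (limma adjusted p under 0.05), against 6.11% of the 14368 probes tested. The count thus lay near the background. At an unadjusted p under 0.05 there were 7, and the share of all probes at that level was not computed. For Cdkn1a probe ILMN_2634083 the GWAT difference less the liver difference was -1.82 on the log2 scale (SE 0.49, adjusted p = 0.0371). For Ccnd2 probe ILMN_2700166 it was -0.87 (SE 0.25, adjusted p = 0.0491), and for Ccnd2 probe ILMN_2700168 -0.83 (adjusted p = 0.0596). Without liver knockout replicate 2, the array with high Cdkn1a, the Cdkn1a value was -1.18 (adjusted p = 0.0123), and that of Ccnd2 was -0.79 and did not pass (adjusted p = 0.101). The Cdkn1a call was lost without any 1 of the wild-type liver arrays or of the 6 GWAT arrays (adjusted p up to 0.0834). The Ccnd2 call was lost without any of 8 arrays, all but wild-type replicate 3 and knockout replicates 1 and 3 of liver and labelled wild-type replicate 3 of GWAT (adjusted p up to 0.151). With the GWAT labels exchanged, the values became 0.26 for Cdkn1a (adjusted p = 0.789) and 1.19 for Ccnd2 (adjusted p = 0.0102), so the direction and, for Cdkn1a, the call depend on the labels that Cav1 goes against.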

How the data were processed

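RNA was measured on 12 Illumina bead arrays, 3 for each of 4 groups taken from the sample titles. The deposited values are linear intensities. Sorted intensities of the arrays of a tissue were nearly equal (largest gap 0.460% in liver, 1.22% in GWAT), as after quantile normalization, and lowest values of 84.0 and 40.6 show that background was not subtracted. For the authors' software, a name was not given in the sources used here. Chip positions alone named 48 columns of 2 non-normalized tables, which were left out.

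Gene names came from the platform annotation: 34885 had 1 symbol, 18 had several and 10378 were not listed. Intensities were background-corrected with normexp in limma 3.58.1 (R 4.3.3), with 1526 receptor probes as negative controls and an offset of 16, and taken to log2. Probes exceeding 95% of these receptor probes on at least 3 of 6 arrays entered two-sided limma tests (lmFit, then eBayes with an intensity trend). Benjamini-Hochberg adjustment ran over all tested probes of the array, with a threshold of 0.05. Levels printed per array are deposited intensities, and differences are on the corrected log2 scale, whose size depends on the correction.

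The members, lists and tests were chosen with earlier results of these data known. Values on every array are given for the 12 called probes with the smallest adjusted p per tissue and for the brightest probe of 14 measured genes. The call of Mcm6 probe ILMN_2803399, the 13th, and further probes of named genes were added after their values were seen. The background correction was dropped or run at an offset of 50 without control probes. The filter was dropped or raised to the 99th percentile. The fit was run without the trend, with robust eBayes, with array weights and with a replicate block. Other alternatives were the brightest probe per gene, joint normalization of all 12 arrays, and leaving out each array. Exchanging the GWAT labels was added after seeing the data. The fits were tested on simulated data.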

Additional observations from a re-analysis of the deposited data

Results flagged for a closer look

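The change of Cdkn1a differed between tissues by the interaction test over all 12 arrays, at -1.82 on the log2 scale for probe ILMN_2634083 (GWAT minus liver, labelled knockout minus labelled wild type, limma adjusted p = 0.0371). All 3 GWAT arrays labelled knockout were below all 3 labelled wild type, while in liver 1 knockout array of 3 was far above the rest. The change of Ccnd2 differed as well, at -0.87 for probe ILMN_2700166 (adjusted p = 0.0491), with a fall in GWAT and overlapping groups in liver. The Cdkn1a call was lost in 9 of 12 fits that left out 1 array and with robust eBayes (adjusted p = 0.108). The Ccnd2 call was lost in 8 of 12 such fits and with the replicate block (adjusted p = 0.0720). Both calls were also lost without a filter and without an intensity trend. Of the 31 cell cycle probes tested in both tissues these 2 passed, near the share of 6.11% over all 14368 probes. Both differences take the GWAT labels as given, which Cav1 goes against. With those labels exchanged, they became 0.26 for Cdkn1a (adjusted p = 0.789) and 1.19 for Ccnd2 (adjusted p = 0.0102).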

How the results depend on the processing

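Of the 13 cell cycle probes called in GWAT, 5 (3 of Cdkn1a and 2 of Ccnd2) were called with every array left out in turn. They were also called under every other alternative run that held them, and 0 of the 13 changed sign under any. The run with the brightest probe of each gene held only ILMN_2634083 of Cdkn1a and ILMN_2700166 of Ccnd2. The GWAT count was 5 of 29 genes with the brightest probe of each gene (2886 of 11567 over the array, 25%). It was 9 of 82 without a filter (3626 of 45281 over the array) and 11 of 51 without an intensity trend (3858 of 21301). With 1 array left out it was 5 to 13 (2777 to 4347 over all probes). Ccne2, Cdk4, Mcm6 and Ccnd1 (ILMN_1221503) lost their calls without a filter. In liver the cell cycle count was 1 with array weights and 0 under the other settings (limma, with 3 at an unadjusted p under 0.05 in the reported fit). Over all liver probes it was 15 without a filter, 0 without an intensity trend (1423 at an unadjusted p under 0.05), 706 with array weights and 0 to 281 with 1 array left out. The difference between tissues was called for 5 cell cycle probes without background correction and 8 with array weights. It was called for 0 without a filter (9 unadjusted), 0 without an intensity trend (7 unadjusted) and 0 to 4 with 1 array left out. For this difference, counts over all probes were not computed under these settings. With the GWAT labels exchanged the difference turned to 0.26 for Cdkn1a and 1.19 for Ccnd2. The cause of these moves was not tested. Same-numbered samples shared little deviation (correlations -0.02 to 0.02 in liver and -0.01 to 0.11 in GWAT), though GWAT replicate 3 matched its own number best. With 3 arrays in a group, such correlations cannot settle whether the numbers pair samples. With the replicate block the counts were 0 cell cycle probes and 12 in all in liver, 13 and 4588 in GWAT, and 1 for the difference between tissues, where Ccnd2 lost its call (adjusted p = 0.0720). In simulated data, 72% of log2 changes of 1 and 20% of 0.5 were recovered in GWAT. The simulation changed 100 of 21301 probes at each size, whereas 4799 were called in the data. These rates therefore do not carry over directly, and dim probes were not simulated apart.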

Other observations

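Rpa3, a subunit of the complex that coats single-stranded DNA during replication, passed the test in both tissues with opposite signs by label. Its probe read 626 to 685 in wild-type and 308 to 394 in knockout liver (-1.10, limma adjusted p = 0.0297). In GWAT it read 569 to 617 on arrays labelled wild type and 794 to 940 on arrays labelled knockout (0.58, adjusted p = 0.00105). In both tissues the arrays with the lower Cav1 signal were the arrays with the lower Rpa3 signal. Whether Rpa3 depends on Cav1, or on some other trait of the knockout line, was not tested. The labels do not say how the knockout allele was made. Its position among these results was noticed after its values were seen.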
